A study of Homo sapiens with 197 samples.

Results

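Of the 61 endogenous and housekeeping rows counted in each lane of this Nanostring kinase screen, 6 are named for vector sequences or for zinc-finger proteins of the Kaiso family, namely MyrFlag, NeoR, PuroR, ZBTB33, ZBTB38 and ZBTB4. The rule for choosing them uses their names and no measured value, but it was set with earlier results of these data known. IMR90 cells, which are primary human lung fibroblasts, were infected in wells with single kinases carrying a myristoylation-Flag tag and expressed from retroviral vectors, and RNA was collected 4 days later. The kinase wells used here, 90 with sample numbers up to 96 and 93 with higher numbers, each hold 1 kinase and 1 lane. They were compared with 2 IMR90 controls that the labels give as empty-vector wells, while the study also speaks of non-infected IMR90 cells, so whether a control carried a vector is uncertain. The lanes also included 2 samples of SW39, a transformed derivative of IMR90, and 6 lanes of a reference RNA mixed from 10 human cancer cell lines. HK1 was left out, and statements on all kinase wells do not cover it. The total count of a kinase well was between 29629 and 340763, with a median of 159350. The controls had totals of 142255 and 152599, SW39 had 123789 and 142790, and the 6 reference lanes had 108768 to 233536.

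In the Nanostring assay, barcoded probes bind RNA in solution and are counted without amplification. A myristoylation signal directs a kinase to membranes, and the Flag epitope gives all kinases of such a collection a common sequence. NeoR and PuroR name the enzymes for resistance to neomycin analogues and to puromycin, which are used to select cells that carry a vector. ZBTB33 (Kaiso), ZBTB38 and ZBTB4 are transcription factors that bind methylated DNA, and DNMT1, UHRF1 and the TET proteins maintain or oxidize DNA methylation.

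The counts went against several row names. In the files, the 15 rows outside the tissue-restricted and housekeeping genes are listed with MyrFlag, NeoR and PuroR in places 1 to 3, followed by 9 other rows in alphabetical order and by ZBTB33, ZBTB38 and ZBTB4 in places 13 to 15. The accessions beside the 3 ZBTB names are those of ZBTB33, ZBTB38 and ZBTB4 in RefSeq. The row MyrFlag was counted at much the same level in the kinase wells and the IMR90 controls and higher in SW39 and the reference RNA, whereas the row ZBTB33 was high in every kinase well and low in all other lanes. Which transcript each row measures, and whether the names are displaced against the values by 3 places in this order, was not tested, and values below are levels of a row under its deposited name. The same reserve holds for the 9 rows listed between them.

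Some lanes also carried conflicting labels. A repeat lane named for IMR90 control 2 has the sample number of IMR90 control 1, one named for PIK3CG has that of PLK1, and one named for PTK2 has that of AKT1. In the row ZBTB38, the repeat lane of control 2 had a normalized count of 1811, against 1625 in the lane with the same number and 7188 in the lane with the same name. In the row ZBTB33, the PIK3CG repeat lane had 20378, against 17351 in PLK1 and 40978 in PIK3CG, and the PTK2 repeat lane had 40062, against 35478 in AKT1 and 28082 in PTK2. In each of these cases the member row was closer to the lane with the same number. These 3 lanes were left out, and summing their counts with those of the same name was an alternative.

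Normalized counts are counts scaled by the positive-control probes of the lane and then by PGK1, TBP and TUBB2A. The negative-control level of a lane is the mean + 2 SD of its 8 negative-control probes in raw counts, with a median of 20.6 over kinase wells. A count under it is called background here.

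The row MyrFlag, named for the tag shared by the kinases, was counted in all lanes. Its normalized count was 438, 650 and 889 (lowest, median and highest) in the kinase wells, 679 and 729 in the controls, 2579 and 2901 in SW39, and 1221, 1523 and 1566 in the reference RNA. The kinase wells enclosed both controls, and SW39 and the reference RNA lay above all of them. Of the wells, 33 were above both controls, 29 lay between them and the rest were below both. The kinase wells and controls did not differ beyond the spread between lanes (log2 fold change of -0.10, adjusted p = 0.616 in edgeR over 58 rows, and p = 0.401 in a two-sided exact permutation test over the 17020 choices of 2 controls). With scaling by the positive controls only, the log2 fold change was 0.21. Over all 58 rows, this scaling moved the median log2 fold change from 0.46 to 0.79.

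The row NeoR, named for the neomycin resistance enzyme, was likewise counted above background in every lane. It was at 110, 184.4 and 293 in the kinase wells, 180.8 and 186.7 in the controls, 201.3 and 239 in SW39, and 409, 504 and 556 in the reference RNA. The controls fell in the middle of the kinase wells, of which 88 were above both and 86 below both. The reference RNA was above every other lane. The kinase wells and controls did not differ beyond the spread (log2 fold change of 0.04, adjusted p = 0.863 in edgeR, and p = 0.908 in the exact permutation test).

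The row PuroR, named for the puromycin resistance enzyme, did not pass the negative-control level in any of the kinase wells, the controls, SW39 or the reference RNA. Its normalized count was 1.57, 6.71 and 23.6 in the kinase wells, 2.98 and 5.19 in the controls, 6.13 and 7.16 in SW39, and 8.43, 11.96 and 15.4 in the reference RNA. The kinase wells overlapped all other groups, and no difference from the controls was detectable (adjusted p = 0.355 in edgeR, and p = 0.192 in the exact permutation test).

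The row ZBTB33, named for Kaiso, separated the kinase wells from all other lanes. It was at 150, 23049 and 114791 in the kinase wells, 8.94 and 18.7 in the controls, 6.36 and 7.003 in SW39, and 9.73, 12.1 and 32.4 in the reference RNA. All wells were above every other lane and above their negative-control level. In RNA from a whole well, fewer cells with a transcript and less of it per cell cannot be told apart. Outside the kinase wells, only 1 lane of the reference RNA passed that level. Every well was above both controls in 1 of the 58 rows tested (1.72% of rows), namely this one, which was also the only row called in edgeR at an adjusted p of 0.05 (1.72% of 58 rows, adjusted p = 3.49e-06). The fitted log2 fold change was 10.84 ± 1.92 (SE), but the 9 and 18 raw counts of controls 1 and 2 were below their negative-control levels of 25.9 and 22.7. Against these levels in place of the controls' own counts, a bound computed after the values had been seen, the mean of the wells was higher by at least 9.37 on the log2 scale. It was the only one of the 6 rows called. In the exact permutation test, p was 5.88e-05, the smallest that 17020 choices can give. With either control left out, the row was called in both fits.

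The row ZBTB38, named for a second zinc-finger protein of the family, was high in the kinase wells, the controls and SW39 and at background in the reference RNA. It was at 83.96, 12575 and 60001 in the kinase wells, 1625 and 7188 in the controls, 5173 and 6704 in SW39, and 4.29, 6.31 and 8.32 in the reference RNA. The controls differed from each other by 4.42-fold in this row, against 1.07-fold in the row MyrFlag and 1.03-fold in the row NeoR. Of the kinase wells, 14 were below both controls, 41 lay between them and the rest were above both. The log2 fold change between kinase wells and controls was 1.70 ± 1.11 (SE) and did not pass the test (adjusted p = 0.329 in edgeR, and p = 0.171 in the exact permutation test). It was 0.99 without control 1 and 3.14 without control 2, and neither fit called it.

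The row ZBTB4, named for the third protein of the family, was weak. It was at 0.82, 9.56 and 48.1 in the kinase wells, 14.9 and 24.9 in the controls, 4.38 and 4.77 in SW39, and 5.77, 8.69 and 15.7 in the reference RNA. It passed the negative-control level in 20 kinase wells and in 1 of 2 controls. Both controls were above the median kinase well, with 11 wells above both, 33 between them and the rest below both, but the difference did not pass the test (log2 fold change of -0.82, adjusted p = 0.329 in edgeR, and p = 0.121 in the exact permutation test). The log2 fold change was -1.15 without control 1 and -0.41 without control 2.

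**Figure D1:**
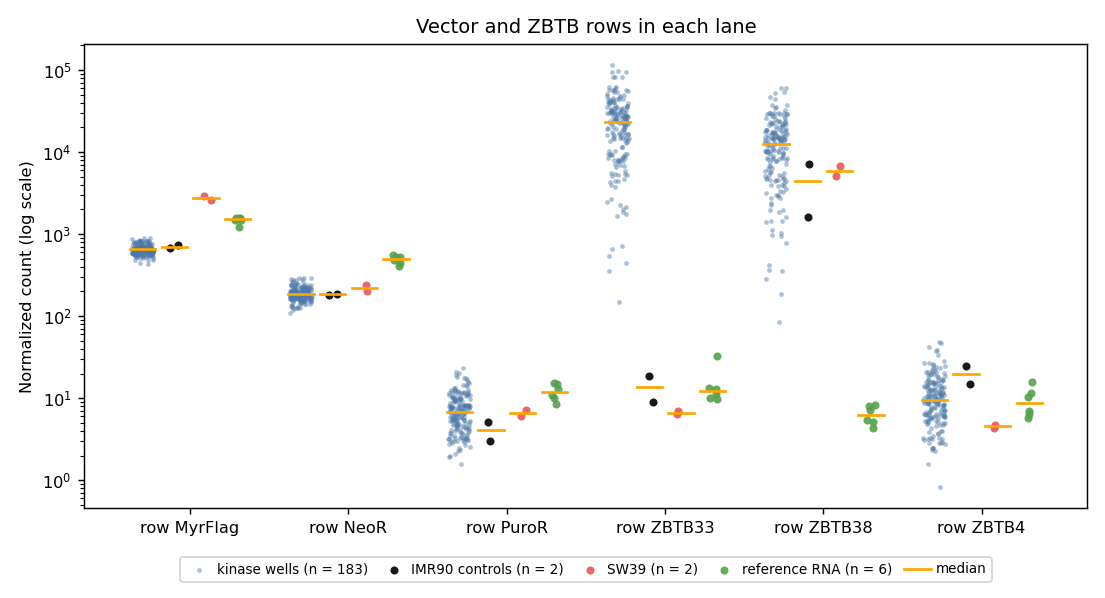
Normalized counts (log scale) of the 6 rows in each lane, with kinase wells in blue, IMR90 controls in black, SW39 in red, reference RNA in green and the median of each group in orange. The row ZBTB33 is the row in which the kinase wells lie above all other lanes, and the row ZBTB38 is high in kinase wells, controls and SW39 and low in the reference RNA.

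SW39 was compared with the same 2 controls, so this comparison shares its control samples with the one above. The labels do not say that the samples of a group came from separate cultures, and p-values measure only the spread between these samples. Of the 58 rows, 8 were called (13.8%), 6 of them higher in SW39, and in 29 rows (50%) both SW39 samples lay on one side of both controls. By chance alone, 2 samples lie on one side of 2 others in a share of 0.333 of rows. Among the 6 rows, the row MyrFlag was higher by 1.96 ± 0.17 (log2, SE) with an adjusted p of 0.00023 in edgeR. The row ZBTB4 was lower by a log2 fold change of -2.08 ± 0.37 (SE, adjusted p = 0.00995), from 15 and 24 raw counts in the controls to 5 and 6 in SW39, all but 1 of them below the negative-control level. The call of MyrFlag was lost with either control left out, and that of ZBTB4 without control 2, while the log2 fold changes stayed between 1.87 and 2.04 for MyrFlag and between -2.41 and -1.68 for ZBTB4 with any 1 sample left out. With control 1 left out the adjusted p in edgeR was 0.0635 for MyrFlag and 0.0382 for ZBTB4, and with control 2 left out it was 0.0687 and 0.0678.

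The rows ZBTB38 and NeoR did not pass the test in SW39. The row ZBTB38 had a log2 fold change of 0.43 (adjusted p = 0.856 in edgeR), which was -0.28 without control 1 and 1.87 without control 2. With the repeat lane summed into control 2 it was 0.95 and was called (adjusted p = 1.87e-06). In this row that lane was at 1811, closer to control 1 (1625) than to control 2 (7188). The sum may therefore mix the 2 controls, and the call is not independent of that. The row NeoR had a log2 fold change of 0.26 (adjusted p = 0.395 in edgeR) and was called only with scaling by the positive controls, at 1.05 (adjusted p = 0.00552). With 1 sample left out and the usual scaling, the log2 fold change of NeoR was between 0.13 and 0.38. Scaling by the positive controls moved the median over the 58 rows from 0.13 to 0.90. The genes used for scaling themselves differed between SW39 and the controls, with ratios of 1.24 for PGK1, 1.53 for TBP and 0.529 for TUBB2A, and B2M, the housekeeping gene not used for scaling, had a ratio of 0.600. The part of the scaling in these results was not tested.

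The 10 rows with the smallest p in SW39 were led by ATAD2 (log2 fold change of 3.77) and Tet1 (3.16), followed by MyrFlag, PPM1D (1.16), ADAM12 (1.36), ZBTB4, Tet3 (0.87), ITPR2 (-0.63), B2M (-0.74) and PLA2R1 (-0.41), of which the first 8 were called in edgeR. ITPR2 turned to 0.15 with scaling by the positive controls only. In the comparison of kinase wells with controls, ZBTB33 came first by p. Next were DAZL (1.39), ADCY10 (0.81), CTAG1B (1.60), Tet2 (-0.24), DPEP3 (1.10), ROPN1 (1.14), RFX4 (0.89), RBM46 (1.19) and MAGEA12 (1.30). None of these 9 passed the test (adjusted p = 0.329 for each in edgeR). Apart from Tet2, these rows were at background in both controls and in most kinase wells. They passed the negative-control level in 0 wells (DPEP3 and RBM46) to 32 wells (ROPN1), so their values compare mostly background counts. With 1 control left out, the log2 fold change ranged from 0.37 to 2.82 for ROPN1, from 0.42 to 1.32 for ADCY10 and from 0.73 to 1.62 for DPEP3. With repeat lanes summed, ADCY10 was called beside ZBTB33, at a log2 fold change of 1.27 (adjusted p = 0.0221 in edgeR). Before summing, ADCY10 passed the negative-control level in 4 kinase wells and in 0 of 2 controls, so this value compares mostly background counts. The repeat lane summed into control 2 had the sample number of control 1. Of the 6 rows named for DNA methylation factors and an siRNA control (DNMT1, PPM1D, Tet1, Tet2, Tet3 and UHRF1), 0 were called between kinase wells and controls (4 of all 58 rows had an unadjusted p under 0.05 in edgeR, and DESeq2 and limma called 1 row each). Of these 6 rows, 3 were higher in SW39 and 0 lower, against 6 and 2 of all 58 rows (6 and 5 by TMM factors, 17 and 1 with the positive controls only). Of all 58 rows, 3 were called in SW39 without control 1 and 0 without control 2 (13 had an unadjusted p under 0.05 in edgeR).

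The rows ZBTB33 and ZBTB38 moved together across the kinase wells. Pearson's r of their log2 normalized counts was 0.99 and Spearman's rho was 0.98 over all kinase wells (permutation p = 1e-05 for both, the smallest that 100000 permutations can give, and 1.67e-05 after adjustment over the 15 pairs of the 6 rows). Without the 2 wells farthest from the median of ZBTB33, r was 0.99. Within blocks of 12 consecutive sample numbers, r was between 0.93 and 1.00 in all 16 blocks with enough wells. Both rows of a well come from the same RNA and share its scaling factor.

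The raw ratio of the row ZBTB33 to the row ZBTB38 had a median of 1.81 over kinase wells, with quartiles of 1.66 and 1.94. In HK1, which was left out, it was 0.5, below that of every kinase well used. The ratio was 0.00260 and 0.00550 in the controls and 0.000949 and 0.00135 in SW39, in which the row ZBTB38 was high without the row ZBTB33. In the reference RNA it was between 1.56 and 4, on 8 to 21 counts of the row ZBTB38, so that it carries little information. The row ZBTB33 itself had a 766-fold range over the kinase wells.

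The ratio differed between kinase wells by more than counting error. Its SD on the log2 scale was 0.20, whereas counting alone would give 0.017 in the median well. The 95% counting interval held the median ratio in 40 wells only. The spread between wells of the same kinase was not measured, so this comparison does not tell kinases apart. The 5 lowest ratios were in RET (1.37, with a counting interval of 1.35 to 1.39), STK3 (1.38), CDK4 (1.39), ADRBK2 (1.40) and CSNK1A1L (1.42). RET is a receptor tyrosine kinase, STK3 a Hippo pathway kinase, CDK4 a cell cycle kinase, ADRBK2 a kinase of G protein-coupled receptors and CSNK1A1L a casein kinase.

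The 5 highest ratios were in CLK2 (3.2, with an interval of 3.02 to 3.40), MAP3K6 (3.12), RPS6KB1 (3.09), PFKL (2.68) and CAMK2D (2.32). The first 4 stood apart from the others, and the SD without them was 0.17. They were not wells of 1 family or of 1 block. CLK2 phosphorylates splicing factors, MAP3K6 belongs to the MAP kinase cascade, RPS6KB1 is an S6 kinase, PFKL is a liver phosphofructokinase and CAMK2D a calmodulin-dependent kinase. Intervals on counts cover counting error only, and each kinase had 1 lane. Where a repeat lane and another lane carried the same number, their ratios were 2.06 and 2.03 (the PIK3CG repeat lane and PLK1) and 1.87 and 1.84 (the PTK2 repeat lane and AKT1). The first lanes of PIK3CG and PTK2 had ratios of 1.72 and 1.85. For PTK2 the ratio of the repeat lane was thus no closer to the lane with the same number.

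**Figure D2:**
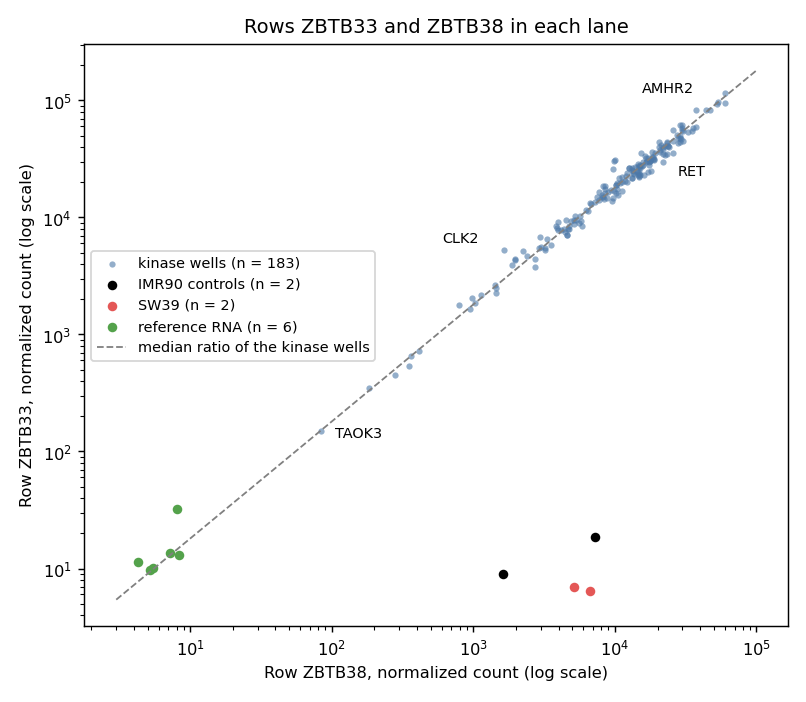
Normalized counts of the row ZBTB33 against the row ZBTB38 (both log scales), with 1 point per lane and the median ratio of the kinase wells, 1.81, as a dashed line. The kinase wells follow the line, and CLK2 and RET have the highest and lowest ratio among them. The controls and SW39 lie far below the line. The reference RNA has ratios of 1.56 to 4 on few counts, and 1 of its lanes passed the negative-control level in the row ZBTB33.

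The wells with the least of the row ZBTB33 were TAOK3, TTK, CDK7, RIOK3 and CHEK1, which also had the least of the row ZBTB38. TAOK3, an STE20 kinase, was counted at 7.44 times its negative-control level, and the mitotic kinase TTK had 429 raw counts against a level of 25.3. CDK7, which activates other CDKs, had 467 against 20.6, RIOK3, an atypical kinase, had 659 against 28.8, and the checkpoint kinase CHEK1 had 614 against 43.99. Even in these wells the row was above background, and the 2 rows kept a ratio between 1.53 and 1.91.

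At the other end were PFKM (normalized count of 83170), EPHA4 (93875), PIK4CA (95040), HK2 (96754) and AMHR2 (114791) in the row ZBTB33. PFKM and HK2 are glycolytic enzymes, EPHA4 is an ephrin receptor, PIK4CA a phosphatidylinositol kinase and AMHR2 the receptor of anti-Mullerian hormone. In the row ZBTB38 the 5 highest were FASTK, EPHA4, HK2, AMHR2 and PIK4CA. The 2 rows together took 0.164% to 57.5% of all counts of a kinase lane, with a median of 21%. Row levels of different probes were compared only between lanes, since probes can be counted with different efficiency.

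By kinase family (16 families of 170 wells, sorted by the kinases' names and known functions), the highest median of the row ZBTB33 was in TGF-beta receptor, LIMK and ILK kinases (55615, n = 6, range of 19612 to 114791), followed by G protein-coupled receptor kinases (35064, n = 4) and the MAPK cascade (28982, n = 10). The lowest medians were in Hippo and STE20 kinases (12936, n = 8, range of 150 to 48126), mitotic and checkpoint kinases (13182, n = 11) and CDK and CKS proteins (14781, n = 11). The families overlapped widely. Families held 16.4% of the variance of log2 ZBTB33 and 16.7% of that of log2 ZBTB38, with adjusted permutation p of 0.0668 for both over 7 measures, which did not pass 0.05. The share was 14.5% for the row PuroR (adjusted permutation p = 0.113), 11.4% for the row MyrFlag (0.272), 9.18% for the row NeoR (0.420), 9.98% for the row ZBTB4 (0.381) and 11.4% for the ratio (0.272).

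The order of the samples held more of the variance than the families did. Blocks of 12 sample numbers held 21.9% of the variance of the row ZBTB33 and 20.6% of that of the row ZBTB38, 55.1% of that of the row MyrFlag, 48.2% of that of the row NeoR and 16.8% of that of the ratio. The labels do not call these blocks batches. Block medians of the row ZBTB33 ranged from 7752 to 41750. Of the 20 wells below 5000, 13 lay among the 56 wells of blocks 2 to 6. Blocks 4 and 5 held 4 of them each and block 6 held 1, while block 9, outside this range, held 3. This range of blocks was not tested. With each block centred on its median, families held 15.6% of the variance of the row ZBTB33 (adjusted permutation p = 0.0979). With scaling by the positive controls only, the shares were 17.04% and 17.4% for the rows ZBTB33 and ZBTB38, with an adjusted permutation p of 0.0479 for both.

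**Figure D3:**
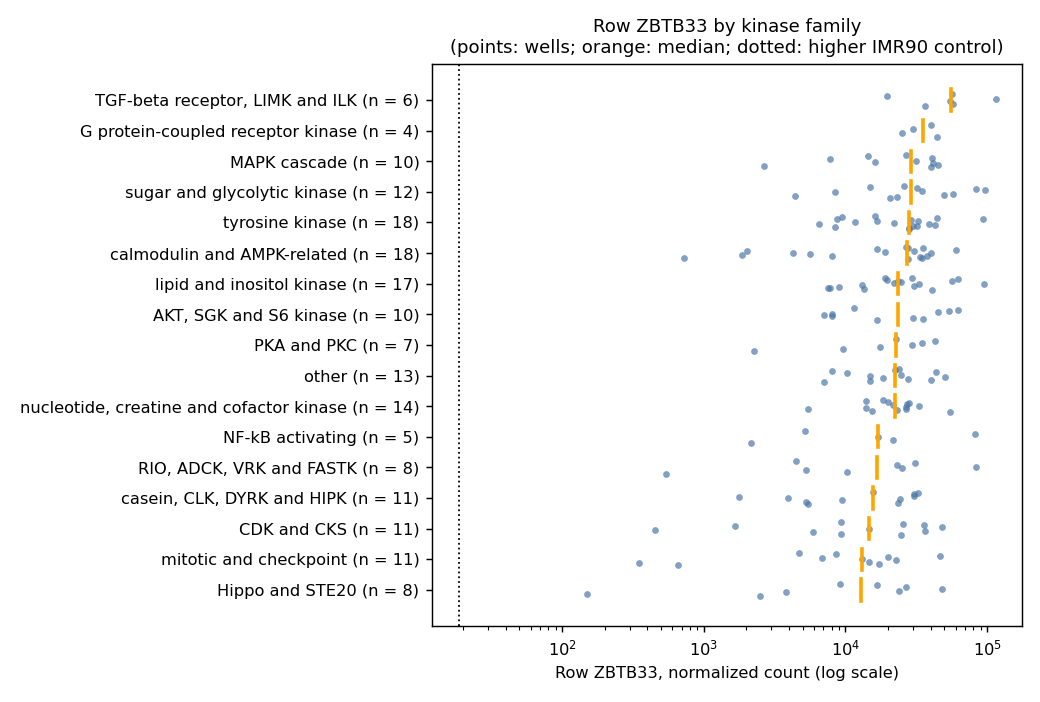
Normalized count of the row ZBTB33 (log scale) in each kinase well by family, with family medians in orange and the higher IMR90 control, 18.7, as a dotted line. Family medians run from 12936 to 55615 while single families span wide ranges, and every well lies right of the control.

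The slope of each other row on log2 ZBTB33 was then fitted over the kinase wells, to see whether the level of the row marking the kinase wells went with other rows. Of 57 rows, 42 were called (73.7%), of which 40 rose and 2 fell (3.51% of rows), KCNA1 and ATAD2. This balance depended on the scaling. By TMM factors 18 rose and 11 fell, and with the positive controls only 51 rose and 0 fell. The median slope was 0.065, against 0.009 and 0.119 with these scalings. Of the 5 other vector and ZBTB rows, 4 were called and all 4 rose, a share near that of all rows. The row ZBTB38 had a slope of 1.00 ± 0.011 (SE), a proportional change. The row ZBTB4 had 0.54 ± 0.03 and the row PuroR 0.30 ± 0.03. Both were weak, PuroR being at background in every well and ZBTB4 above the negative-control level in 20 wells only. The row NeoR had 0.036 ± 0.012 (adjusted p = 0.00618 in edgeR), which turned to -0.022 with TMM factors. The row MyrFlag had a slope of 0.0031 ± 0.0090 (adjusted p = 0.735 in edgeR), which turned to -0.055 with TMM factors and was called there. Both sides of the fit share the lane's scaling factor. With blocks as a covariate 24 rows were called, ZBTB38, ZBTB4 and PuroR among them, and the row NeoR was not (adjusted p = 0.0803).

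Next to ZBTB38 by p were 9 rows with smaller slopes, all rising. MAEL, a germline protein of the piRNA pathway, had a slope of 0.56, followed by ZBTB4, CTAG1B (0.47) and MAGEA12 (0.44), both cancer-testis antigens, PIWIL1 (0.40), a piRNA-binding protein, PuroR, ROPN1 (0.28), SSX1 (0.28) and C10ORF82 (0.26). Over all 57 rows the median slope was 0.07. Of the 42 tissue-restricted rows, 32 rose and 1 fell, against 40 and 2 of all 57 rows.

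The rises were counted by how strongly a row was measured. Of the 41 rows with a median count at or under 20.6, 33 rose and 0 fell, and their median slope was 0.08. Of the 16 rows above it, 7 rose and 2 fell, and apart from ZBTB38 their slopes lay between -0.05 (KCNA1) and 0.09 (PLCZ1). Of the 6 rows DNMT1, PPM1D, Tet1, Tet2, Tet3 and UHRF1, 2 rose, DNMT1 by 0.04 and Tet3 by 0.02, and the median slope of the 6 was -0.01. With TMM factors the slopes turned to -0.013 for DNMT1 and -0.036 for Tet3, while the median over all 57 rows fell to 0.009. Both turns went with that common shift. B2M had a slope of 0.04 (adjusted p = 0.0879 in edgeR). When the 8 negative-control rows were tested in the same fit, a check added after the values had been seen, 0 of them rose and 2 fell.

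**Figure D4:**
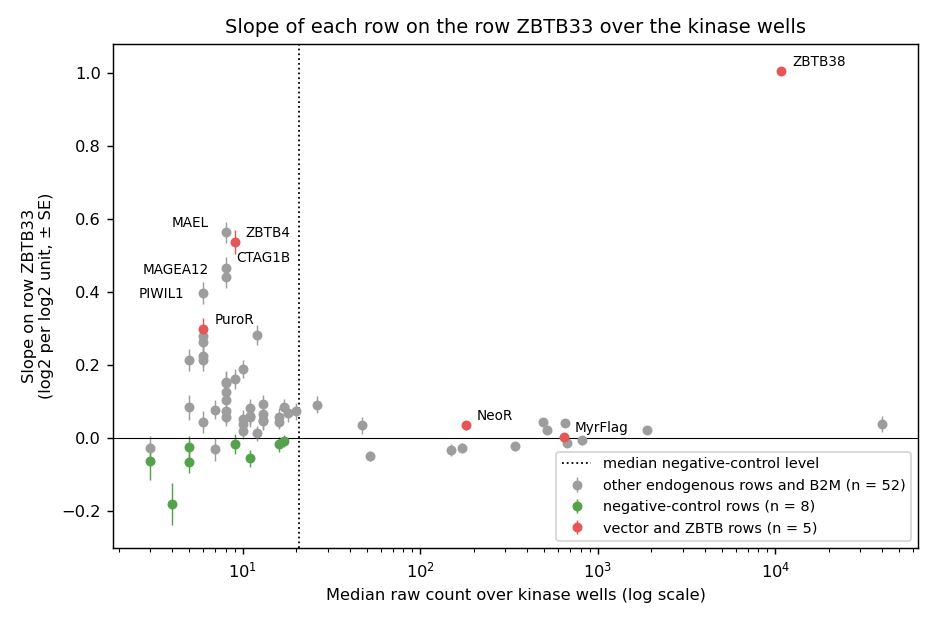
Slope of each row on the row ZBTB33 (log2 per log2 unit, ± SE) against its median raw count over kinase wells (log scale), with the 5 other vector and ZBTB rows in red, negative-control rows in green and the median negative-control level as a dotted line. The steep slopes other than that of ZBTB38 lie left of the dotted line, where the negative-control rows do not rise.

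The weak rows were also set against the row ZBTB33 in raw counts. The row MAEL gained 3.196 counts for each 10000 counts of the row ZBTB33 (0.0320%), from an intercept of 3.01, and was above the negative-control level in 20 wells. The row ZBTB4 gained 2.93 counts and the row PuroR 1.07 counts for each 10000. The 8 negative-control rows gained 0.0217 to 0.466 counts on the same measure, which is not corrected for the depth of a lane. In TAOK3, TTK, CDK7, RIOK3 and CHEK1, the wells with the least of the row ZBTB33, the row MAEL had 2, 5, 2, 4 and 3 counts and the row ZBTB4 had 3, 3, 3, 1 and 6. In PFKM, EPHA4, PIK4CA, HK2 and AMHR2, the row MAEL had 31, 31, 36, 44 and 31 counts and the row ZBTB4 had 27, 38, 43, 43 and 24. The negative-control level in those high wells was between 15.5 and 27.3. Spearman's rho with the row ZBTB33 was 0.83 for MAEL and 0.79 for ZBTB4, and between -0.16 and 0.06 for the 8 negative-control rows. A source of these counts other than the named transcripts was not tested.

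**Figure D5:**
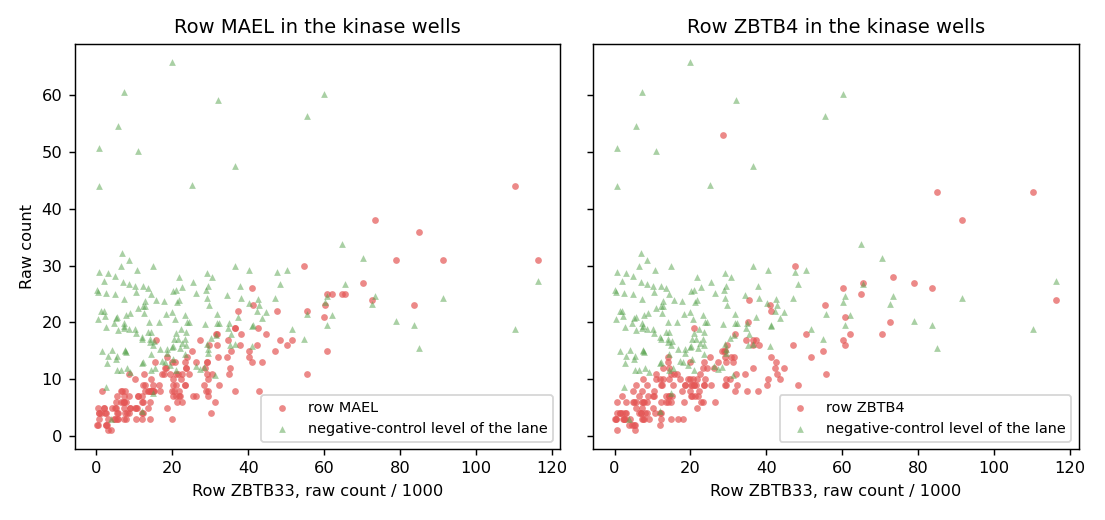
Raw counts of the rows MAEL and ZBTB4 (red) and the negative-control level of the same lane (green) against the raw count of the row ZBTB33, with 1 point per kinase well. Both rows climb from under 10 counts to about the level of the negative controls or above it.

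MAP3K7 (TAK1), whose well had the highest ADAM12 (a metalloprotease) of the kinase wells with a normalized count of 514, lay near the middle in the rows ZBTB33 and ZBTB38, with ranks of 86 and 97 counted from the lowest. It was low in the row MyrFlag, at 490 against a lower quartile of 592 over the kinase wells, and in the row NeoR, at 133.4 against 167.1. Blocks of sample numbers held 55.1% and 48.2% of the variance of these 2 rows. In the block of MAP3K7, the row MyrFlag ran from 479 (FGFR1) to 727 (PIM1). The row NeoR ran there from 133.4 in MAP3K7 itself to 209.9 (PIM1). What part of its low values went with the block was not tested. The row ADAM12 had a slope of 0.04 on the row ZBTB33 that did not pass the test (adjusted p = 0.165 in edgeR, and 0.105 without MAP3K7), while Spearman's rho of the 2 rows was 0.20 (adjusted permutation p = 0.0114).

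The 6 rows were also compared with each other and with the other rows over the kinase wells. The row MyrFlag was most like Tet1 and UHRF1 (Spearman's rho of 0.76 for both over the kinase wells), and the row NeoR was most like ALAS1 (0.70), a heme synthesis enzyme, and MyrFlag (0.68). The row PuroR was most like ZBTB4 (0.68) and RFX4 (0.63), and had a rho of 0.61 with ZBTB33 and 0.59 with ZBTB38, although it was at background in every well. With counts raised to the negative-control level, Pearson's r with ZBTB33 went from 0.57 to -0.10 for PuroR and from 0.75 to 0.03 for ZBTB4. This floor replaces the counts of PuroR in every well and those of ZBTB4 in all but 20 wells. The fall in r follows from the floor and decides nothing about the relation. The row NeoR had a Spearman's rho of 0.43 with ZBTB4 and 0.28 with ZBTB33, and the row MyrFlag had 0.10 and 0.08. The rows ZBTB33, ZBTB38 and ZBTB4 were most like each other and MAEL or CTAG1B. These likenesses are descriptions over wells that share probes, scaling and sample order.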

How the data were processed

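The authors deposited raw counts of 75 rows per lane, read from the instrument, and a table of the whole series that holds a normalized signal. The signal was used only as an alternative. In 189 of 197 lanes it is the count multiplied by 1 factor per lane, and in 8 it is the count itself. Counts were scaled in Python 3.11.15 by the geometric mean of the positive controls, then of PGK1, TBP and TUBB2A, and log2 values used a pseudocount of 1. Kinase wells and SW39 were compared with the IMR90 controls, and slopes on the row ZBTB33 were fitted, by the quasi-likelihood test of edgeR 4.0.16 in R 4.3.3 with Benjamini-Hochberg adjustment at 0.05. DESeq2 1.42.0 and limma 3.58.1 were alternatives. Families and correlations were tested with 100000 permutations, two-sided, with a Benjamini-Hochberg adjustment. Scripts were tested on simulated data.

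Names were matched for 55 of 61 rows to RefSeq (GRCh38.p14). The genes named were the 6 rows, the housekeeping genes, the DNA methylation rows, MAP3K7 and ADAM12, the 5 lowest and highest wells, the 3 lowest and highest families and the 10 rows with the smallest p. KCNA1, ATAD2, PLCZ1 and the rows of highest likeness were named after seeing their values. The 6 rows, lists and tests were chosen with earlier results of these data known. The FASTK well has a repeat lane only, which was used. Of 184 kinase wells, 183 were used, and the depth of a lane limits its weak rows. The 95% intervals of ratios cover counting error only.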

Additional observations from a re-analysis of the deposited data

Results flagged for a closer look

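Within the 6 reference lanes and the kinase families of 4 to 10 wells, 22 groups of values were searched for a single lane far from the others, which chance gives in about 1 of 20 groups. In the row MyrFlag, reference RNA 3 was at a normalized count of 1221, below the other 5 lanes. In the row ZBTB33, reference RNA 1 was at 32.4, above the other 5 lanes, on 84 raw counts against a negative-control level of 72.9, the highest such level among the reference lanes. The ratio of the row ZBTB33 to the row ZBTB38 was 3.09 in RPS6KB1, far above the other AKT, SGK and S6 kinases, and 3.12 in MAP3K6, far above the other kinases of the MAPK cascade. The cause of these values was not tested.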

How the results depend on the processing

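Of 810 values recomputed under another setting, 732 were counted as unchanged. A value called in neither setting was counted so even where its sign turned, as for ZBTB38 in SW39 (0.43, and -0.28 without control 1). Counts of called rows and the median ratio were counted so within a set margin. Between kinase wells and controls, 2 rows were called with repeat lanes summed. That sum put a lane with the sample number of control 1 into control 2. Between SW39 and controls, 18 rows were called with positive controls only and 14 with repeat lanes summed. With 1 sample left out there were 0 to 6 calls, the lone sample being assumed to vary like the other group, namely 3 without control 1 and 0 without control 2, where 13 rows had an unadjusted p under 0.05 in edgeR and the complete set gave 9 calls with DESeq2 and 7 with limma. The replicate block gave 9 calls (same-numbered samples deviated together with r = 0.60 over 15 rows, on numbers that the labels do not call pairs). For slopes, 8 of the 16 rows above the negative-control level were called, fewer rows being tested, and 24 with blocks of 12 sample numbers. The family shares passed the test with positive controls only, at 17.04% for ZBTB33 and 17.4% for ZBTB38.

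Among recomputed values of the results above that were called in either setting, signs turned for ITPR2 in SW39 (0.15 with positive controls only), for the slopes of Tet2 (0.027), UHRF1 (0.032) and ATAD2 (0.015) with positive controls only, and for the slopes of MyrFlag (-0.055), NeoR (-0.022), DNMT1 (-0.013), Tet3 (-0.036), ALAS1 (-0.011) and ITPR2 (-0.016) with TMM factors. The median slope over the 57 rows moved from 0.065 to 0.009 with TMM factors and to 0.119 with positive controls only. The turns of slopes went with that common shift and are not particular to the rows named. Pearson's r of the rows ZBTB33 and PuroR turned to -0.10 with counts raised to the negative-control level, which removes all values of PuroR. Where no reason is given, the cause was not tested. The planned comparison with protein length was not run. Single lanes per kinase and 2 controls limit all comparisons.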
